A study of Microtus ochrogaster with 34 samples.

Results

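The 212 genes described here were expressed at a moderate excess in the testes of summer males over those of winter males without spermatogenesis, and stood under 0.5 of their summer level in winter males that kept it. They were chosen on the 3 group means of RPKM as deposited, out of 23038 genes. RPKM are the reads counted per kilobase of exon, here scaled by the DESeq2 normalization of each library rather than by its total reads. The rule asked for a summer mean of at least 10 RPKM, a summer mean at least 3 times and less than 16 times the mean of winter males without spermatogenesis, a mean in winter males with spermatogenesis under 0.5 of the summer mean, and the same mean more than 1.5 times that of winter males without it. The rule used all 3 group contrasts, so every difference between group means given here describes what was chosen and carries no test.

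Testis RNA came from 34 wild-caught males of the vole Arvicola terrestris scherman (ATS), labelled wild type and as Microtus ochrogaster, with 1 polyA library per animal. The S group held 18 males trapped in July or August, the W+ group 5 males trapped in January or February that maintained spermatogenesis, and the W- group 11 males trapped in the same winter months that did not. Winter males were assigned to W+ or W- from histology of the testis and epididymis, and W- joined more than one testicular phenotype. The animals kept were of reproductive age, judged by body weight, and were held in an animal facility under controlled light and temperature. Ages in days or months were not found in the sources used here. The season of capture is the same for every animal of a group. Season therefore cannot be told apart from anything else that differed between the captures, and the W+ values come from 5 animals.

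Spermatogenesis runs from spermatogonia through meiosis to round and elongating spermatids, and each stage transcribes a large set of genes of its own. In seasonal breeders the seminiferous tubules regress outside the breeding season, germ cells of the later stages are lost, and the somatic Sertoli, Leydig and peritubular cells make up more of the remaining testis. RNA of a whole testis averages over all these cells, so that fewer cells of a type and less RNA per cell cannot be told apart. The genes carry Ensembl identifiers that no table used here pairs with a symbol, which is why no function is given for any of them and neither the tissue nor its cell types could be checked against marker genes.

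Counted reads per library, recovered from the RPKM, ranged from 5534624 to 63857173 in S, from 4960095 to 8576446 in W+ and from 2938625 to 9653969 in W-. Within a group, every pair of libraries differed by more than sampling noise. A member was counted with a median of 980.5 reads in an S library, 330.5 in a W+ library and 137 in a W- library. In at least 1 library of the group, 34 of the 212 members were under 10 reads in W-, 2 in W+ and 1 in S, so that counting error is largest in W-.

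The members ranged from abundant to modest transcripts. Their S means ran from 10.0 to 2171 RPKM with a median of 61.9. There were 67 members between 10 and 30 RPKM, 69 between 30 and 100, 56 between 100 and 300, and 20 above. The W+ means ran from 3.47 to 1016 RPKM with a median of 29.5, and the W- means from 0.720 to 229 RPKM with a median of 8.32. The S mean was 3.10 to 15.96 times the W- mean (median 7.89). With values per total counted reads the median was 4.85, and 42 members fell below 3. The W+ mean was 0.317 to 0.499 of the S mean (median 0.451) and 1.53 to 7.94 times the W- mean (median 3.38). With the W- mean set to 0 and the S mean to 1, the median member lay at 0.347 in W+ testes on the RPKM scale and at 0.589 on the log scale. On the log scale 167 members lay above the midpoint between W- and S and 45 did not. In RPKM the rule itself places every member below it.

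A W+ mean under 0.5 of the S mean was the lower tail of one continuous distribution. Of the 8278 genes with an S mean of at least 10 RPKM, 1648 had an S mean 3 to 16 times the W- mean, and their W+ to S ratio had a median of 0.691, with quartiles of 0.578 and 0.797. The ratio was under 0.5 in 218 of them, and 6 of these were left out because W+ did not exceed W- by enough. The members made up 12.9% of the 1648 genes. Their counts rose towards the limit, with 12 members under 0.35, 30 from 0.35 to 0.4, 62 from 0.4 to 0.45 and 108 from 0.45 to 0.5. No gap separated them from the 1430 genes of the same S to W- range whose W+ to S ratio was at least 0.5, called the other moderately summer-high genes below. The closest members had ratios of 0.499, 0.499 and 0.498, and the closest genes outside had 0.50002, 0.5005 and 0.5011.

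**Figure D1:**
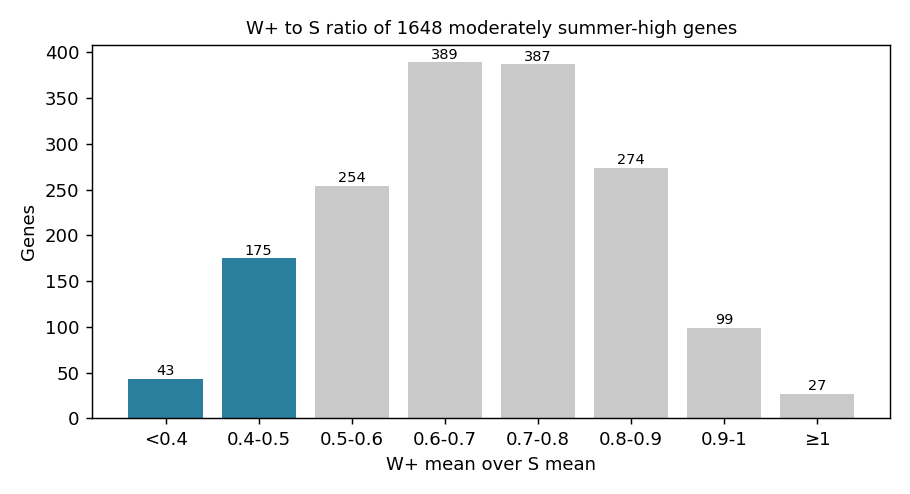
Number of genes (vertical axis) by the ratio of the W+ mean to the S mean in RPKM (horizontal axis), for the 1648 genes with an S mean of at least 10 RPKM and 3 to 16 times the W- mean. The coloured bars hold 43 and 175 genes under 0.5, of which 212 met the whole rule; the tallest bar, from 0.6 to 0.7, holds 389 genes.

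The other limits of the rule cut continuous ranges in the same way. The lowest S means among members were 10.03, 10.16 and 10.34 RPKM, and 373 genes missed the rule by this limit alone, the nearest at 9.95 RPKM. The highest S to W- ratios among members were 15.96, 15.95 and 15.89, and 586 genes met every other condition with a ratio of at least 16, the nearest at 16.12. No gene was excluded by the lower limit of 3 alone, which the conditions on W+ already imply, and the lowest members had 3.10, 3.41 and 3.47. The members with the smallest excess of W+ over W- had ratios of 1.53, 1.56 and 1.59, against 1.47, 1.44 and 1.43 outside.

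Members were not spread evenly over the S to W- range. They were 18 of 479 genes (3.76%) with an S mean 3 to 4 times the W- mean, 91 of 728 (12.5%) from 4 to 8 times, and 103 of 441 (23.4%) from 8 to 16 times. The median W+ to S ratio over all genes of these ranges was 0.733, 0.694 and 0.635. Genes with a larger loss in W- testes were thus more often under 0.5 in W+ testes. The conditions are linked here: for genes near 3-fold, the limits on W+ against S and against W- leave a narrower range of W+ values than for genes near 16-fold. Over the whole range, the limit against W- removed 6 of the 218 genes under 0.5. The S to W- ratio and the W+ to S ratio also share the S mean, and what this adds to the trend was not tested.

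The most abundant member, ENSMOCG00000021614, had 1832 to 2585 RPKM in the S libraries with a median of 2083. Its W+ values were 498, 956, 1375, 1207 and 1045 RPKM in replicates 1 to 5. In W- testes it had 119 to 400 RPKM with a median of 195, and W- replicates 1, 4, 2 and 3 held the highest values, at 400, 379, 311 and 301 RPKM. The groups did not overlap, and W+ replicate 1 lay closer to the highest W- library than to the next W+ library. The means were 2171 ± 217 RPKM (SD, n = 18) in S, 1016 ± 331 (n = 5) in W+ and 229 ± 100 (n = 11) in W-, which gave an S to W- ratio of 9.48 and a W+ to S ratio of 0.468. The latter was 0.586 with values per total counted reads. After quantile normalization, which pulls the highest values of all libraries together, it was 0.842.

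The next most abundant member, ENSMOCG00000009395, had 737 to 1043 RPKM in S libraries with a median of 854. The W+ replicates 1 to 5 had 234, 364, 437, 485 and 442 RPKM, and W- libraries had 140 to 204 RPKM with a median of 166. Again no library of one group reached the range of another. The W- spread of this gene was narrow, 169 ± 18.8 RPKM (SD, n = 11), beside 393 ± 98.5 (n = 5) in W+. The S mean of 873.5 ± 90.3 RPKM (n = 18) was 5.17 times that of W-, and the W+ to S ratio was 0.449. That ratio was 0.564 with values per total counted reads and 0.658 after quantile normalization, no longer under 0.5.

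The member with the lowest W+ to S ratio, 0.317, was ENSMOCG00000017170. It had 87.7 to 151 RPKM in S libraries with a median of 129.8. The W+ values were 24.8, 36.7, 61.5, 40.9 and 37.8 RPKM in replicates 1 to 5, and the W- libraries had 6.06 to 19.6 RPKM with a median of 11.0. All 5 W+ libraries lay under 0.5 of the S mean of 127 ± 15.3 RPKM, and all lay above the highest W- library. The mean was 40.3 ± 13.3 RPKM (SD, n = 5) in W+ and 12.3 ± 4.11 (n = 11) in W-.

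The next lowest ratio, 0.318, belonged to ENSMOCG00000009111, a transcript of far lower abundance. Its S libraries had 8.69 to 21.6 RPKM with a median of 17.3, and its W+ libraries had 2.24, 3.45, 9.86, 4.49 and 7.94 RPKM in replicates 1 to 5. Its W- libraries had 0.896 to 3.25 RPKM with a median of 1.29. Here the groups overlapped on both sides: W+ replicate 3 was above the lowest S library, and the highest W- library, replicate 5, was above W+ replicate 1. Only 366 reads over the 5 libraries stand behind the W+ mean of 5.60 ± 3.19 RPKM (SD, n = 5). The S and W- means were 17.6 ± 3.20 (n = 18) and 1.78 ± 0.880 RPKM (n = 11).

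**Figure D2:**
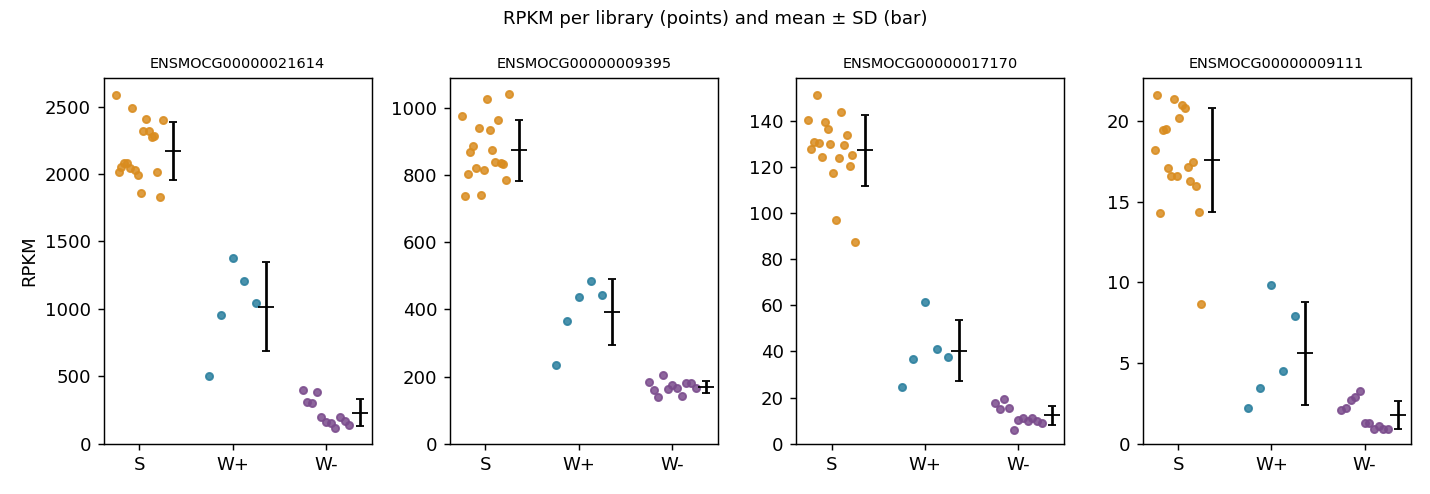
RPKM (vertical axes, linear, each gene on its own scale from 0) of the 2 most abundant members and the 2 members with the lowest W+ to S ratio, by group; each point is 1 library and each bar the mean ± SD. In the first 3 genes the W+ points lie between the S and W- points with no overlap, and in ENSMOCG00000009111 the W+ points, from 2.24 to 9.86 RPKM, overlap both groups.

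The 5 W+ testes did not share one level of these genes. Each value was divided by the S mean of its gene, and the median over the 212 members was 0.263, 0.382, 0.564, 0.484 and 0.494 in W+ replicates 1 to 5 (mean 0.437 ± 0.117, SD, n = 5). S libraries ranged from 0.795 to 1.11 on this measure (mean 0.993 ± 0.0804, n = 18) and W- libraries from 0.110 to 0.140 (mean 0.122 ± 0.0118, n = 11). The 3 groups did not overlap, and the SD between animals was largest in W+. The choice on group means favours such a separation, and the other moderately summer-high genes showed both features too. Their library medians ran from 0.808 to 1.11 in S, 0.492 to 0.788 in W+ and 0.145 to 0.228 in W-. The SDs were 0.0771, 0.126 and 0.0214. Replicate 1 was the lowest W+ library for 172 of the 212 members (81.1%) and replicate 2 for 35. Among the other moderately summer-high genes replicate 1 was the lowest more often, in 86.2%. Replicate 3 was the highest for 128 members (60.4%), followed by replicate 5 for 52 and replicate 4 for 26. It was also the most frequent highest library among the other moderately summer-high genes, in 39.0%.

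The order of the W+ libraries was different for the other moderately summer-high genes. Their median level was 0.492, 0.728, 0.787, 0.788 and 0.771 of the S mean in replicates 1 to 5, so that replicate 1 stood apart and replicates 2 to 5 lay within a narrow range. Genes that met the remaining conditions but had an S mean at least 16 times the W- mean, 586 genes nearly lost from W- testes, had 0.188, 0.306, 0.537, 0.439 and 0.477. Replicate 1 was the lowest W+ library for 91.6% of these 586 genes and replicate 3 the highest for 63.3%. The members followed the order of the nearly lost genes, with replicate 1 lowest, then 2, 4, 5 and 3. Both of these gene groups were chosen partly on the same W+ means.

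**Figure D3:**
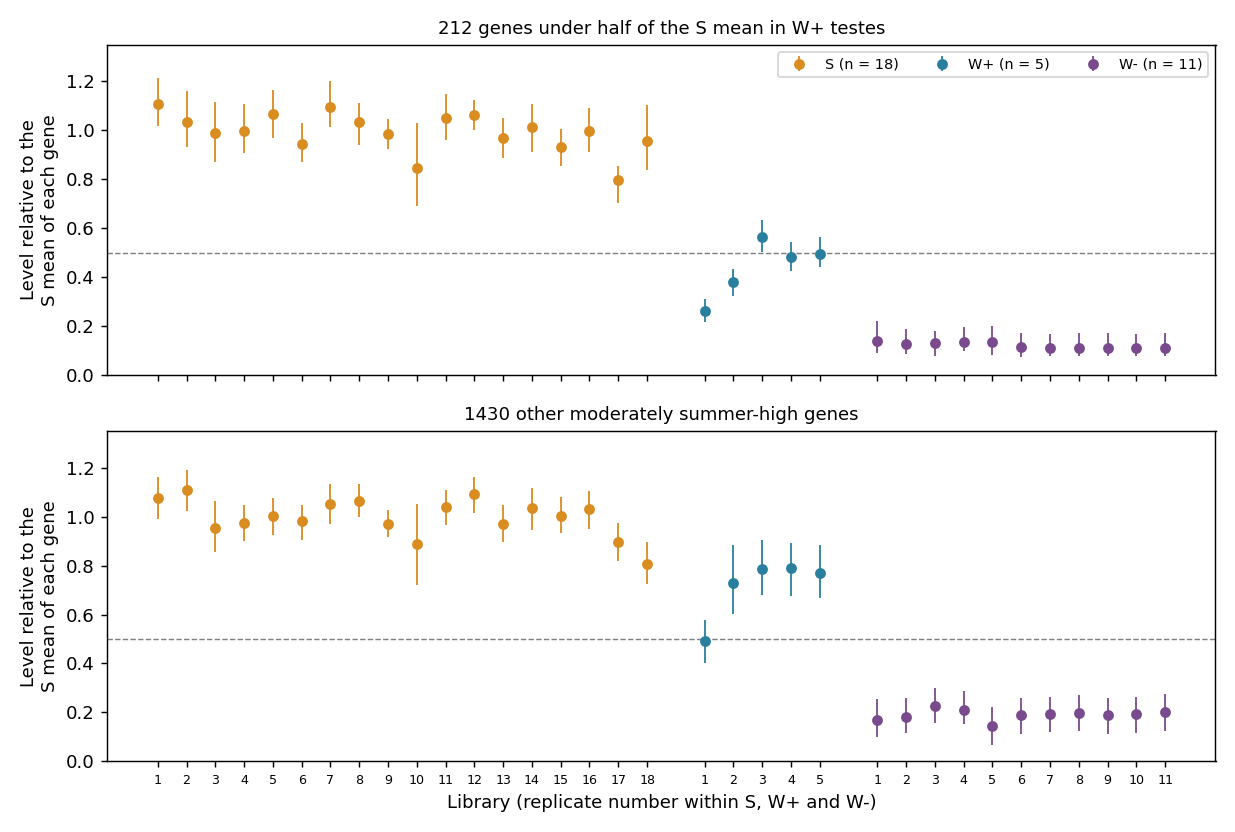
Level of each library (horizontal axis, replicates in S, W+ and W-) as the median over genes of the value divided by the S mean of the gene (points), with quartiles over genes (bars) and a dashed line at 0.5, for the 212 members (top) and the 1430 other moderately summer-high genes (bottom). The W+ medians lie at 0.263 to 0.564 in the members and at 0.492 to 0.788 in the other genes, with replicate 1 lowest in both.

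Counted gene by gene, 20 of the 212 members were under 0.5 of their S mean in all 5 W+ libraries, where 3.48% of the 19185 genes with enough signal were. A further 62 members were under it in 4 libraries, 87 in 3, 40 in 2 and 3 in 1 library. By library, 210 members were under 0.5 of the S mean in W+ replicate 1, 196 in replicate 2, 52 in replicate 3, 125 in replicate 4 and 109 in replicate 5. A mean under 0.5 thus rested in most members on replicates 1 and 2 and on some of the remaining libraries. Replicates 1 and 2 were also most often under 0.5 among all genes with an S mean of at least 10 RPKM. The shares there were 25.4%, 14.1%, 5.54%, 8.24% and 6.89% in replicates 1 to 5. In the other moderately summer-high genes they were 52.5%, 10.4%, 4.83%, 3.08% and 2.45%. The low standing of replicates 1 and 2 was therefore not particular to the members. Among the other moderately summer-high genes, 629 were under 0.5 in no W+ library, 587 in 1, 181 in 2, 33 in 3 and 0 in 4 or 5.

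**Figure D4:**
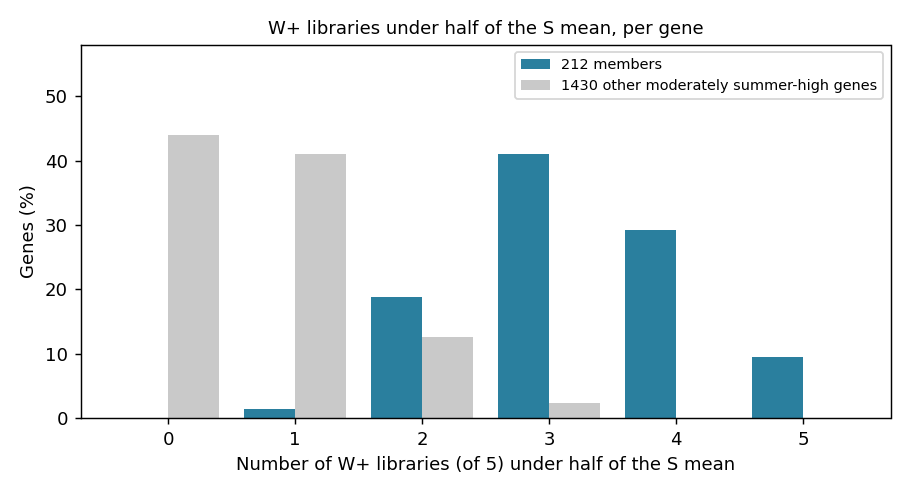
Percent of genes (vertical axis) by the number of the 5 W+ libraries in which the gene was under 0.5 of its S mean (horizontal axis), for the 212 members and the 1430 other moderately summer-high genes. The members centre on 3 libraries (87 genes) and the other genes on 0 (629 genes) and 1 (587 genes).

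Because the W+ mean chose the members, the rule was also applied with each W+ library left out, and the genes chosen were looked up in the library that had taken no part. Without replicate 1 the rule chose 124 genes, 117 of them members, and 119 of the 124 (96.0%) were under 0.5 of the S mean in replicate 1, with a median level of 0.255. Without replicate 2 it chose 183 genes, of which 159 (86.9%) were under 0.5 in replicate 2, with a median of 0.389. Both libraries were thus low for genes chosen without them. Replicate 1 was also under 0.5 of the S mean in 55.6% of the other moderately summer-high genes, so its low level was not particular to the chosen genes. Without replicate 4 it chose 240 genes, and 119 (49.6%) were under 0.5 in replicate 4 (median 0.503). Without replicate 5 it chose 258 genes, and 101 (39.1%) were under 0.5 in replicate 5 (median 0.534). Without replicate 3 it chose 272 genes, and 47 (17.3%) were under 0.5 in replicate 3 (median 0.596).

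In replicates 3, 4 and 5, from 17.3% to 49.6% of the genes chosen on the other animals were thus under 0.5 of the S mean. The chosen genes lay lower in every library left out than the other moderately summer-high genes of the same choice, whose median levels in the library left out were 0.480, 0.721, 0.790, 0.790 and 0.775 for replicates 1 to 5. Of these other genes, 55.6% were under 0.5 in replicate 1, 12.9% in replicate 2, 5.39% in replicate 3, 3.65% in replicate 4 and 3.11% in replicate 5. These figures share the S mean with the rule, and only the W+ library is independent of it.

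**Figure D5:**
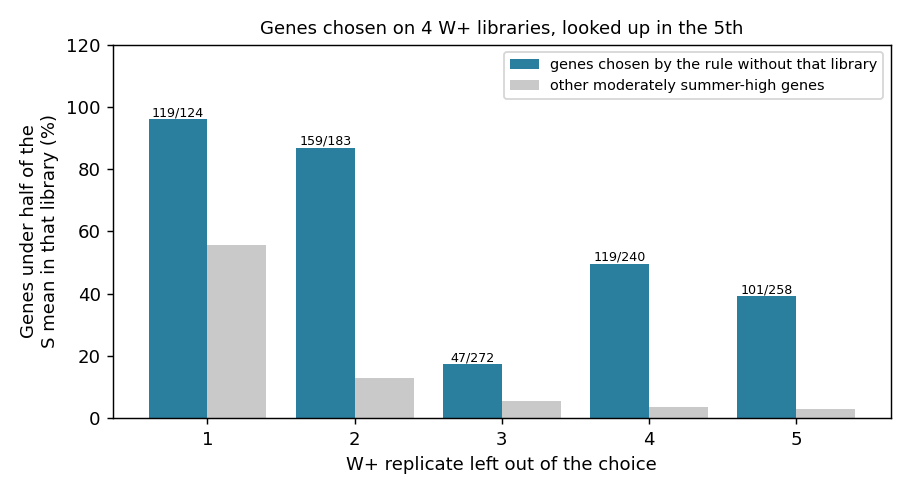
Percent of genes under 0.5 of the S mean in 1 W+ library (vertical axis) when that library (horizontal axis, W+ replicate) was left out of the choice, for the genes chosen by the rule on the remaining libraries, with their counts above the bars, and for the other moderately summer-high genes of the same choice. The share of chosen genes runs from 17.3% in replicate 3 to 96.0% in replicate 1, above that of the other genes in each of the 5 libraries.

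The same look at single S and W- libraries gave narrower ranges in W-. Without any one W- library the rule chose 203 to 216 genes, and 88.9% to 98.6% of them had less in that library than the W+ mean divided by 1.5, against 95.9% to 99.4% of the other moderately summer-high genes. Without any one S library it chose 200 to 218 genes. The share of them with an S value above the W+ mean by the factor the rule asks for varied by library. It was 25.1% in S replicate 17, 40.8% in S replicate 10 and 59.3% to 91.9% in the other S libraries. For the other moderately summer-high genes it was 1.26% to 12.7%. Those genes were set apart from the chosen ones by the same W+ mean against the S mean. The rule thus largely fixes this contrast, and nothing is read from it. The W- shares rest on that W+ mean as well. S replicates 17 and 10 were also lowest in the median level of the members, at 0.795 and 0.847 of the S mean.

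With limma on log2(RPKM + 0.1), called at an adjusted p under 0.05 and a log2 fold change beyond 1, all 212 members were called higher in S than in W-, where 28.7% of the 19185 genes tested were. In W+ against W-, 177 members were called higher in W+, beside 21.9% of the genes tested. In W+ against S, 207 members were called lower in W+, beside 7.04% of the genes tested. The rule used these contrasts, which also share the S, W+ or W- libraries pairwise, and nothing is read from the counts. Without W+ replicate 1, 118 members were called lower in W+ than in S, beside 4.04% of the 19156 genes then tested.

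In 110 of the 212 members every S library was above every W+ library and every W+ library above every W- library, beside 4.03% of the genes tested. Every S library was above every W- library in 204 members, beside 23.0% of the genes tested. Every W+ library was above every W- library in 153 members (19.8% of the genes tested), and every W+ library was below every S library in 143 (5.23%). The overlap with W- came mostly from W+ replicates 1 and 2, which were at or under the highest W- library in 53 and 30 members, against 16, 10 and 5 for replicates 4, 5 and 3. The overlap with S came mostly from W+ replicates 3, 5 and 4, at or above the lowest S library in 57, 32 and 22 members, against 8 for replicate 2 and 6 for replicate 1. On the S side, replicates 10, 17 and 18 were at or under the highest W+ library in 41, 32 and 23 members, and the remaining S libraries in 2 to 14. These counts by library were taken for the members only, so nothing particular to the members is read from them. Among the other moderately summer-high genes, S replicates 18, 10 and 17 were most often the lowest S library (35.4%, 26.2% and 10.4%). W+ replicate 1 was the lowest W+ library in 86.2% of those genes.

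Among S males the members had a median coefficient of variation (SD over mean) of 16.1%, with quartiles of 12.1% and 21.8%. The other moderately summer-high genes and all 8278 genes with an S mean of at least 10 RPKM both had a median of 14.6%. Among the 5 W+ males the median was 31.3% for the members, 23.6% for the other moderately summer-high genes and 20.2% for all such genes. Among W- males it was 30.4%, 28.6% and 25.5%. The nearly lost genes had higher medians than the members in all 3 groups, 16.9% in S, 39.6% in W+ and 101.7% in W-. The median of the members lay above that of the other moderately summer-high genes in each group, with the widest gap among W+ males, and part of the W+ spread is the spread of the values that chose them.

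The lowest S library was replicate 10 for 64 members, replicate 17 for 55 and replicate 18 for 24, and the highest was replicate 1 for 30. For the other moderately summer-high genes the lowest was S replicate 18 for 506 of 1430 (35.4%). Among W- males, the median level of the members was 0.129 to 0.140 of the S mean in replicates 1 to 5 and 0.110 to 0.117 in replicates 6 to 11. W- replicate 1 was the highest W- library for 65 members, replicate 5 for 37 and replicate 4 for 28. Replicate 5, which had the fewest counted reads (2938625), was also the lowest W- library for 30 members, more than any other W- library. The median level of the nearly lost genes in W- libraries was 0.00242 to 0.0293 of the S mean, a wider range in fold and a narrower one in difference than the 0.110 to 0.140 of the members.

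The share of all counted reads that fell on the members does not depend on how libraries are scaled. It was 3.45% to 4.13% in S (mean 3.88 ± 0.174, SD, n = 18), 1.45%, 1.96%, 2.62%, 2.33% and 2.37% in W+ replicates 1 to 5 (mean 2.15 ± 0.455, n = 5), and 0.825% to 0.892% in W- (mean 0.853 ± 0.0230, n = 11). The order of the groups and of the W+ libraries was that of the median levels. On this measure the W+ mean was a larger part of the S mean than in RPKM, and the deposited RPKM follow the DESeq2 normalization rather than the total reads.

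How many genes meet the rule depends on that scaling. With values per total counted reads, under which the median gene tested was 0.30 (log2) higher in W+ than in S, 67 genes met it, and 35 of these were members. The W+ to S ratio of the 212 members was then 0.397 to 0.633 with a median of 0.569, and 39 stayed under 0.5. After quantile normalization 100 genes met the rule, 76 of them members, and the ratio was 0.333 to 0.842 with a median of 0.519. All 212 members remained lower in W+ than in S under both scalings. Per total reads this was set in advance, because that scaling could not lift genes chosen under 0.5 to their S level. In W+ replicates 1 to 5 the median levels of the members were 0.390, 0.478, 0.696, 0.593 and 0.593 per total reads, again lowest in replicates 1 and 2 and highest in replicate 3. Without W+ replicate 1 the rule chose 124 genes. Without the deeply sequenced S replicates 12 to 15 it chose 212, of which 199 were members.

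The exon length behind each RPKM, relative to that of the other genes, has no part in the ratios of the rule, but enters its limit of 10 RPKM. The members had a median relative length of 1.12 with quartiles of 0.719 and 1.76, the other moderately summer-high genes 1.20 with quartiles of 0.736 and 1.89, and all genes with an S mean of at least 10 RPKM a median of 1.06. The nearly lost genes were shorter, with a median of 0.725. In length the members therefore resembled the other moderately summer-high genes more than the nearly lost genes. The abundant members ENSMOCG00000021614 and ENSMOCG00000009395 were short, at 0.359 and 0.279, and ENSMOCG00000017170 was long, at 1.98.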

How the data were processed

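RNA-seq libraries of 34 testes (18 S, 5 W+ and 11 W-) were analysed, grouped by the library names in the labels. The authors trimmed reads with Trim Galore 0.6.10, checked them with FastQC 0.12.1, used HISAT2 to align them against MicOch1, the genome of Microtus ochrogaster, obtained counts per gene from HTSeq, and deposited RPKM made during DESeq2 normalization. The submitters' processing notes name the build mm10, which the methods mention for gene ontology only. Annotation release and strand setting: not given in the sources used here. Reads of genes with close paralogs or overlapping neighbours may be split or lost in such counts.

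Reads were recovered for 20318 genes, where 100% of values were whole (tolerance 0.02 reads). A further 503 genes above 0 in 1 library were not recovered. Group differences were tested with limma 3.58.1 (R 4.3.3, eBayes with trend) on log2(RPKM + 0.1), over the 19185 genes that reached 0.1 RPKM in 5 or more libraries, with the 3 groups in a single model. Fold changes on this scale understate those of low genes. P-values were adjusted after Benjamini-Hochberg. Recovery and fit were tested on simulated data. Relative exon length is the length that the recovered reads and the RPKM imply, in units of the typical gene.

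The genes and lists were chosen with earlier results of these data known. The rule for named genes asked for the most abundant members and those with extreme ratios, among others, with at most 2 identifiers each way, so that 4 are printed, picked within it after their values were seen. Of 26397 genes in the RefSeq table (MicOch1.0), 0 carried an Ensembl identifier, so 0 of 23038 genes had a symbol, and the lists of cell type markers, pathways and motifs could not be used. Alternatives covered the pseudocount, the filter, the scaling, the fit, the thresholds, a replicate block and each library left out.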

Additional observations from a re-analysis of the deposited data

Results flagged for a closer look

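W+ replicate 1 lay far from the other W+ libraries in the median level of the 1430 other moderately summer-high genes, at 0.492 of the S mean against 0.728, 0.787, 0.788 and 0.771 in replicates 2 to 5. The gap to its neighbour was 0.797 of the range of the 5 libraries, above Dixon's limit of 0.71. For the 212 members the same gap was 0.395 of the range and did not pass. Chance flags about 1 group in 20, and 6 of the 212 members had a lowest and 4 a highest W+ library beyond the limit.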

How the results depend on the processing

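Under 47 other settings, 34 of which leave out 1 library, 483 of 499 values kept their direction and size within the limits used, 16 moved and 0 reversed. Part of this was fixed in advance. Leaving out a W- library cannot move a W+ to S ratio, and a count of genes cannot reverse. A kept value could also cross the limit of the rule: the W+ to S ratio of ENSMOCG00000021614 was 0.468 as deposited and 0.586 per total reads. The rule chose 67 genes with values per total reads, 100 after quantile normalization, 42 with a W+ to S limit of 0.4, and 124 to 272 when 1 library was left out, the lowest without W+ replicate 1. The median W+ to S ratio was 0.569 per total reads and 0.413 to 0.495 when 1 library was left out. With no limit on fold change, 15348 genes were called in S against W- (9890 with it), 12243 in W+ against W- (7165) and 5050 in W+ against S (1579). With a pseudocount of 1, the last was 1010. It was 921 to 1777 when 1 library was left out, 921 (147 higher, 774 lower) without W+ replicate 1. Members called in W+ against S were 46 per total reads, 98 after quantile normalization and 118 to 209 with 1 library left out. The cause was not tested. Per total reads the calls split 3955 higher and 7438 lower in S against W- (5515 and 4375 as deposited), 3395 and 5099 in W+ against W- (4210 and 2955), and 963 and 584 in W+ against S (229 and 1350). After quantile normalization they split 4325 and 6321, 3450 and 4838, and 326 and 949. Over 21 pairs of same-numbered samples the correlation of deviations was -0.16 to 0.14, above 0.1 in 1 pair and highest for the own number in 2, so the numbers do not pair the animals. With a replicate block, 9962 genes and 212 members were called in S against W-, 7529 and 173 in W+ against W-, and 2001 and 186 in W+ against S. Counting error is largest at the low W- levels, where 34 members had under 10 reads in at least 1 library.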
